A study of Mus musculus with 5 samples.

Results

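The genes described here are 31 genes of the T cell receptor and of its costimulatory and inhibitory partners, examined in a map of Nr1d1 binding in mouse Th1 cells. They were taken as a list of gene symbols, and all 31 were found among the 21887 protein-coding genes of the RefSeq annotation (GRCm38.p6, the build of the files). Nr1d1 (REV-ERBα) is a heme-binding nuclear receptor that represses transcription in the circadian clock. The cells were naive CD4 T cells from secondary lymphoid organs of wild-type C57BL/6 mice aged 4 to 6 weeks. They were activated with antibodies to CD3 and CD28 and turned into Th1 cells with IL-12, IFNγ and an antibody to IL-4 for 3 to 4 days. All libraries share this culture: 3 come from Nr1d1 ChIP, 1 from an IgG mock pull-down and 1 from input DNA. The antibody label names Nr1d1 for all 5, so the mock and the input were recognised by their titles. Peaks over the input are given by antibody and not by library (19586 ChIP and 17111 IgG peaks). ChIP-specific peaks are the 14471 ChIP peaks with no IgG peak over them. No value is given per library, so no spread between libraries can be stated and the read depth is unknown. A site bound in few cells and a site bound weakly in all cells cannot be told apart in such bulk chromatin. The lists hold no expression values, so the Th1 identity of the cells was not tested.

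The T cell receptor recognises peptide on MHC and signals through the CD3 and zeta chains, which carry tyrosine motifs. Lck phosphorylates these motifs, Zap70 docks on them, and the adaptors Lat and Lcp2 (SLP-76) then gather Plcg1 and Vav1. From there calcium drives the NFAT factors, and PKC-theta (Prkcq) drives NF-kB through Bcl10 and Malt1. CD28 and ICOS add a second signal, whereas PD-1, CTLA-4, LAG-3 and TIGIT, the phosphatase Ptpn22 and the ubiquitin ligase Cblb restrain the response. The same receptor and CD28 were the targets of the activating antibodies in these cultures.

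Nuclear receptors such as Nr1d1 recognise the half-site AGGTCA. Promoter windows from RefSeq (GRCm38.p6, 250 bases before to 50 after a transcription start site, TSS) were at hand for 23 of the 31 genes. Of these, 4 genes (17.4%) held AGGTCA on either strand, against 16.7% of the 17492 protein-coding genes with a window: Lcp2, Pdcd1, Vav1 and Zap70. No ChIP and no IgG peak touched any of the 29 windows of the 23 genes. Of all 21263 windows, ChIP peaks touched 2.82%, ChIP-specific peaks 1.61% and IgG peaks 2.14%. At such low shares, a count of 0 in 29 windows does not set these genes apart. For the 3 genes whose window lies before the outermost start site of the gene, the 250 bases upstream are shown 5′ to 3′ on the gene's strand, with the half-site in capitals (TGACCT is the half-site read on the other strand). They show where the half-site stands in promoters that had no peak.
Lcp2: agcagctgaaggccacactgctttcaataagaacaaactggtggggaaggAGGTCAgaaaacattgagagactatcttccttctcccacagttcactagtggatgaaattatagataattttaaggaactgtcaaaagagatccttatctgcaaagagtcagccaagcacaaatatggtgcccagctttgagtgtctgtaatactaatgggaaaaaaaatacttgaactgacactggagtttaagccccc
Pdcd1: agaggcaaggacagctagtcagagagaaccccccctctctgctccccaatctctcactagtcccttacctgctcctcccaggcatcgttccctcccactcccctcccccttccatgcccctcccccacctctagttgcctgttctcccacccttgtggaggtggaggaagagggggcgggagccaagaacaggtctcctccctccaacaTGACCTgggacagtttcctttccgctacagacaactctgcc
Vav1: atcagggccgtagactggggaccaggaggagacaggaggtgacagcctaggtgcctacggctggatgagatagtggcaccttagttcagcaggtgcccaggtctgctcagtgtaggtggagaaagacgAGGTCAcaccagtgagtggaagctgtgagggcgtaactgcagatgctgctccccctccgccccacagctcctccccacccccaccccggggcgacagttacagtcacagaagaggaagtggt
These stretches lie at chr11:34046678-34046927 (plus strand), chr1:94052554-94052803 (minus strand) and chr17:57278850-57279099 (plus strand). The half-site begins 200 bp upstream of the TSS in Lcp2, 41 bp in Pdcd1 and 122 bp in Vav1. In Zap70 it lies 243 bp before a start site inside the gene. With a T before it (TAGGTCA), the half-site was in 0 of the 23 genes and in 2.70% of all genes with a window. The longer RORE and RevDR2 consensus sites, which overlap the half-site, were in 0 of the 23 genes too, and in 0.177% and 0% of all genes.

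The comparison of the ChIP with the IgG mock asks which of these genes carried Nr1d1 peaks beyond the background. Of the 31 genes, 1 (3.23%) was the nearest gene of a ChIP-specific peak in the authors' annotation, against 17.5% of all protein-coding genes. That gene was Cblb. The count was the same with all ChIP peaks, overlap with IgG allowed, at 1 of 31 against 22.0%. It was also 1 of 31 for IgG peaks, against 17.0% of all genes, and the gene was again Cblb. The other 30 genes were nearest to no peak of any list. Assignment goes by the nearest TSS of any gene, noncoding and predicted ones included, so peaks were also counted by position. A ChIP-specific peak lay in the gene body or within 5 kb of it for 3 of the 31 genes (9.68%), Cblb, Nfatc3 and Cd4, against 16.8% of all genes. An IgG peak did so for 1 (3.23%), Malt1, against 15.9%. No test of the list was made, since these counts describe 1 set of lists without replicates. The role groups hold 2 to 7 genes each, so a count of 0 or 1 in a group does not set it apart from these shares.

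Cblb, a ubiquitin ligase that sets the threshold for activation without CD28, had the peak that stood nearest to a start site, among the 23 genes with one on record. The ChIP-specific peak was intronic, at chr16:52042701-52042874 (mm10), 11238 bp downstream of the TSS, and 175 bp long. Its FDR was 0.0133, close to the median of 0.0146 over ChIP-specific peaks, and 44.7% of these had a lower one. Over all ChIP peaks the median was 0.0111, and 54.9% had a lower FDR than this peak. The median over IgG peaks was lower still, at 0.00845. By length the Cblb peak also stood near the middle, with 50.4% of ChIP-specific peaks longer. Cblb is the second-longest gene of the list at 176818 bp. The IgG peak assigned to it was intergenic and far away, 311662 bp upstream of the TSS (chr16:51719826-51719949, FDR 0.0215), and the IgG peak nearest to the gene body was 275 kb off. The other negative regulator inside the cell, the phosphatase gene Ptpn22, had a ChIP-specific peak 37.7 kb beyond its downstream end, in an intron and assigned to Phtf1 (chr3:103949976-103950249, FDR 0.0088). Its nearest IgG peak was 515 kb away.

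Among the NFAT genes, whose products calcineurin sends to the nucleus, Nfatc3 stood apart in position from the other two. A ChIP-specific peak lay inside its body at chr8:106112126-106112349 (FDR 0.00956), 52.5 kb from the nearest TSS of Nfatc3. The annotation calls it an intron and assigns it to the neighbour Esrp2, 20838 bp from that gene's start. Of the other peaks within 100 kb of Nfatc3, 2 were ChIP-specific, near Dpep2 and Prmt7, and 1 ChIP peak near Dpep2 lay over an IgG peak. The gene has 10 other protein-coding genes within 100 kb. Nfatc1 and Nfatc2, each over 100 kb long and with 1 coding neighbour within that distance, had their nearest ChIP-specific peaks 151 and 159 kb away and their nearest IgG peaks 274 and 293 kb away.

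The receptor and its coreceptor had no peak inside their genes (0 of 5 for ChIP-specific and IgG peaks, beside 13.7% and 13.1% of all genes). Such a count in 5 genes does not set them apart. Cd4, whose product binds MHC class II and brings Lck to the receptor, had a ChIP-specific peak 944 bp beyond its lower-coordinate end (chr6:124863626-124863749, FDR 0.0451, 125 bp). The annotation classes that peak as exonic and assigns it to Gpr162, 230 bp from that gene's start. It had one of the weaker values of its list, whose highest FDR rounds to 0.05. A second ChIP-specific peak, intronic and assigned to Leprel2, lay 15.5 kb from Cd4 (chr6:124848951-124849224, FDR 0.0088). The same 2 peaks were 40.6 and 55.1 kb from Lag3, the inhibitory receptor gene that lies 16.1 kb from Cd4, so these genes do not give separate observations. Cd3g, Cd3d and Cd3e, which encode the signalling chains of the receptor and lie within gaps of 1.34 and 11.7 kb of each other, had their nearest ChIP-specific peak 231 to 260 kb away and their nearest IgG peak 202 to 231 kb away. Cd247, the zeta chain gene, was the member farthest from a ChIP-specific peak at 539 kb, and its nearest IgG peak was 368 kb off.

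**Figure D1:**
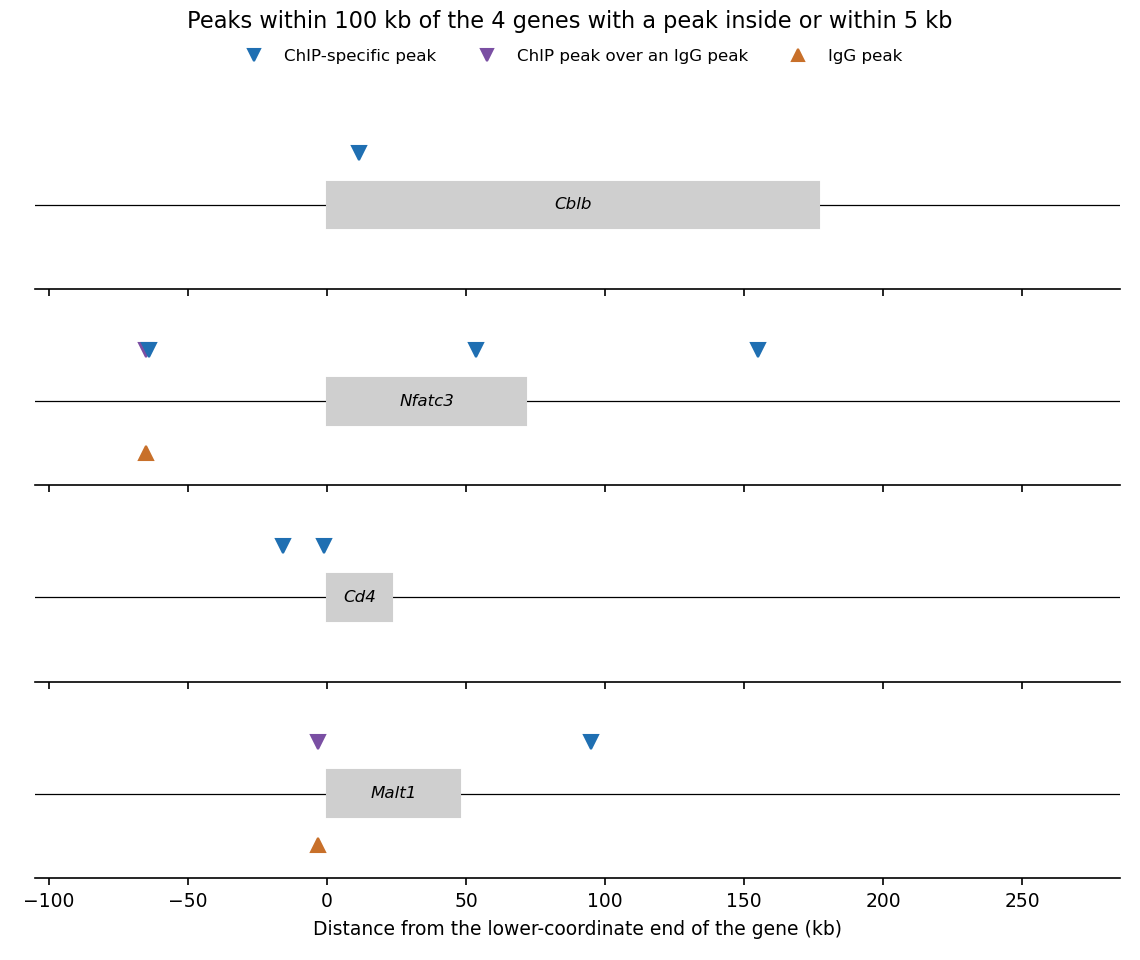
Peaks within 100 kb of Cblb, Nfatc3, Cd4 and Malt1, the 4 genes with a ChIP-specific or IgG peak inside the body or within 5 kb. The horizontal axis gives the distance in kb from the lower-coordinate end of the gene (grey box), triangles above the line are ChIP peaks (blue ChIP-specific, purple over an IgG peak) and orange triangles below it IgG peaks. Cblb and Nfatc3 have a ChIP-specific peak inside the box, and Malt1 has a ChIP and an IgG peak at the same place just outside it.

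In the group of PKC-theta, the Bcl10-Malt1 complex and NF-kB, 0 of 6 genes had a ChIP-specific peak inside or within 5 kb (16.8% of all genes). Malt1, a protease and scaffold of that complex, had the strongest peak near any of the 31 genes, and it was a shared one. A ChIP peak of 675 bp at chr18:65427351-65428024 and an IgG peak of 625 bp at chr18:65427376-65427999, each with an FDR printed as 0, lay 2.92 and 2.94 kb from its lower-coordinate end. Both were classed as exonic and assigned to Gm22567. The nearest ChIP-specific peak of Malt1 was intergenic and 46.8 kb from the other end (chr18:65525726-65526024, FDR 0.00956). Bcl10, the adaptor that binds Malt1, had one 98.1 kb upstream, intronic and assigned to Ddah1 (FDR 0.00503). For Prkcq, Nfkb1, Rel and Rela the nearest ChIP-specific peak was 476, 521, 198 and 160 kb away. The nearest IgG peaks of these 4 genes were farther still, at 387 to 677 kb.

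The proximal kinases and adaptors had peaks in their surroundings and none within 5 kb (0 of 7 in either list, 16.8% and 15.9% of all genes). Plcg1, the lipase that makes the calcium-releasing messenger, had a ChIP-specific peak 53.7 kb upstream, intronic and assigned to Top1 (chr2:160677451-160677649, FDR 0.0172). Zap70 had one 90.1 kb upstream, assigned to Gm24133 (FDR 0.00887), and Lck one 98.6 kb upstream, intronic and assigned to Kpna6 (FDR 0.0088). For Lck an IgG peak was closer, 21.6 kb upstream, exonic and assigned to Eif3i (chr4:129595276-129595374, FDR 0.00996). Lat and Vav1 each had a ChIP peak over an IgG peak downstream, 82.2 and 83.3 kb away, and their nearest ChIP-specific peaks were at 441 and 110 kb. Fyn, a kinase related to Lck and the longest gene of the list, had none inside its body, and its nearest ChIP-specific and IgG peaks were 167 and 530 kb away. Lcp2 had its nearest ChIP-specific peak at 144 kb and an IgG peak at 135 kb.

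The surface receptors that add or restrain the second signal had 0 of 8 genes with a peak inside or within 5 kb, whichever list was used (16.8% and 15.9% of all genes). Lag3, named above, was the nearest of them to a ChIP-specific peak. Cd28, Ctla4 and Icos lie side by side on chromosome 1 with gaps of 136 and 44.9 kb. Cd28 had its nearest ChIP-specific peak at 296 kb, intronic and assigned to Abi2. Ctla4 and Icos shared theirs, an intergenic peak assigned to Gm11591 with an FDR printed as 0, at 245 and 160 kb. Pdcd1, the PD-1 gene, and Tigit had one at 139 and 146 kb, and their nearest IgG peaks were 785 and 475 kb away. Cd5 and Cd6, neighbouring genes of scavenger-receptor family proteins that tune receptor signals, were 476 and 385 kb from a ChIP-specific peak and 261 and 332 kb from an IgG peak.

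**Figure D2:**
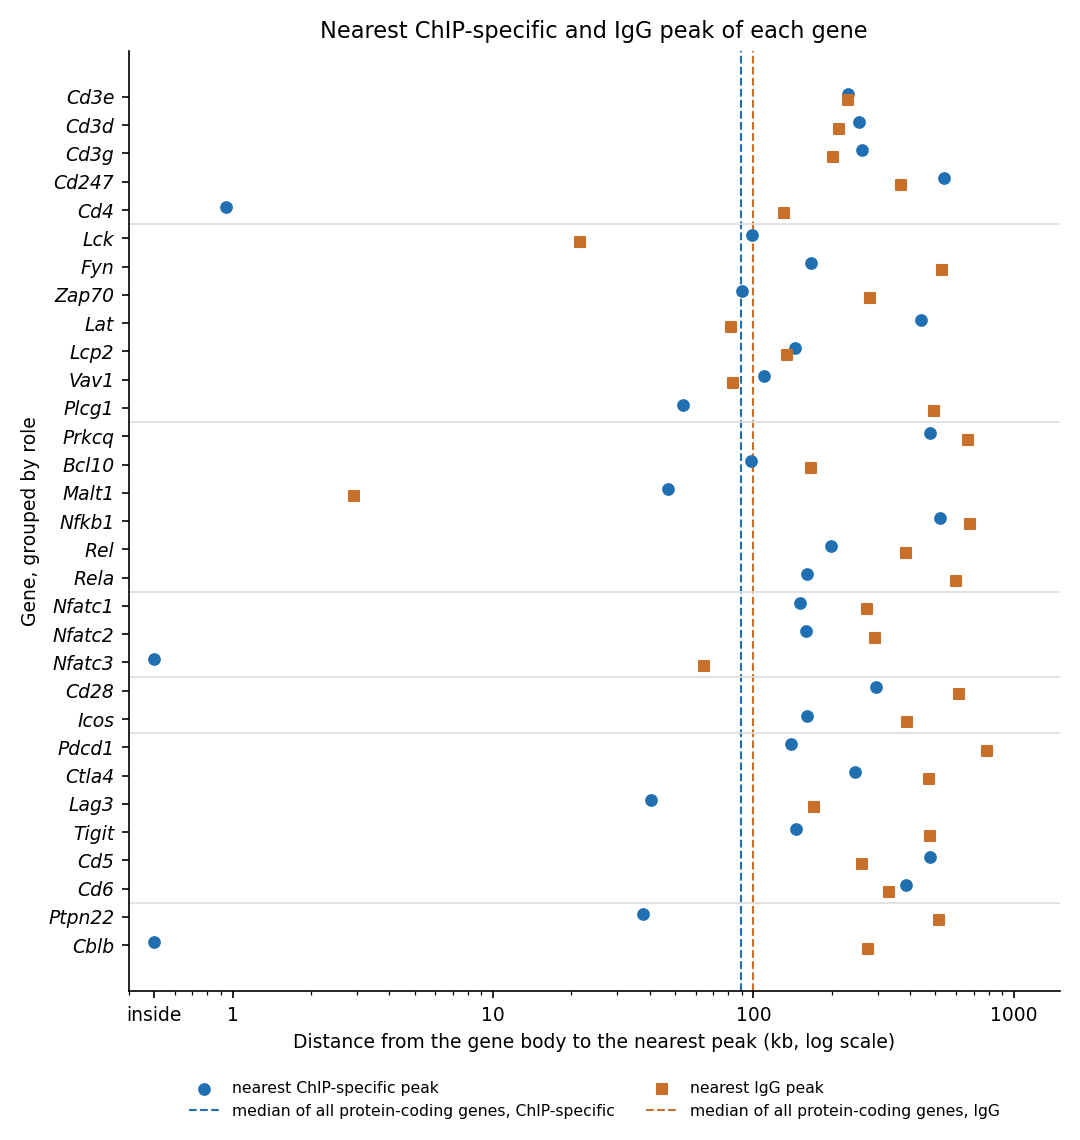
Distance in kb (log scale) from the body of each of the 31 genes to the nearest ChIP-specific peak (blue circles) and IgG peak (orange squares), with genes grouped by role and a peak inside the gene drawn at the left edge. Dashed lines are the medians over all protein-coding genes, 89.7 kb for ChIP-specific and 99.5 kb for IgG peaks, and most of the 31 genes lie to the right of both.

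Over the whole list, peaks of both kinds were far away. The median distance from the TSS to the nearest ChIP-specific peak was 167 kb over the 23 genes with a start site on record (range 11.2 to 621 kb, quartiles 98.4 and 260 kb), against 107 kb over 17492 genes. For IgG peaks it was 293 kb (range 21.6 to 800 kb, quartiles 190 and 487 kb) against 116 kb. The quartiles over all genes were 38.3 and 234 kb for ChIP-specific and 39.9 and 269 kb for IgG peaks, so the spread among genes is wide and the ranges overlap. No TSS of the 23 genes had a peak within 10 kb. ChIP-specific peaks lay that near in 10.1% of all genes and IgG peaks in 10.6%, so 0 of 23 does not set these genes apart. Cd4 and Malt1, each with a peak within 5 kb of the body, have no start site on record and are not among the 23. From the gene body, the ChIP-specific peak was the nearer one for 21 genes and the IgG peak for 10. Of all protein-coding genes, 10839 had the ChIP-specific peak nearer and 9778 the IgG peak.

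Wider windows added genes to both counts, and the shares stayed below those of all genes. Within 50 kb of the body, 6 of the 31 genes (19.4%) had a ChIP-specific peak, against 37.2% of all genes, and 2 (6.45%) had an IgG peak, against 35.0%. Within 100 kb the counts were 10 (32.3%, against 53.0%) and 5 (16.1%, against 50.1%). For 19 genes (61.3%) no peak of either list was found within 100 kb, against 28.4% of all genes. These 19 include the 4 CD3 and zeta chain genes, Cd28, Icos, Ctla4, Pdcd1, Tigit, Cd5, Cd6, Fyn, Lcp2, Prkcq, Nfkb1, Rel, Rela, Nfatc1 and Nfatc2. Windows of 100 kb overlap among Cd3g, Cd3d and Cd3e, among Cd28, Ctla4 and Icos, and between Cd5 and Cd6. Those of Cd4 and Lag3 overlap too and hold the same peaks. These counts are therefore of genes and not of separate regions.

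**Figure D3:**
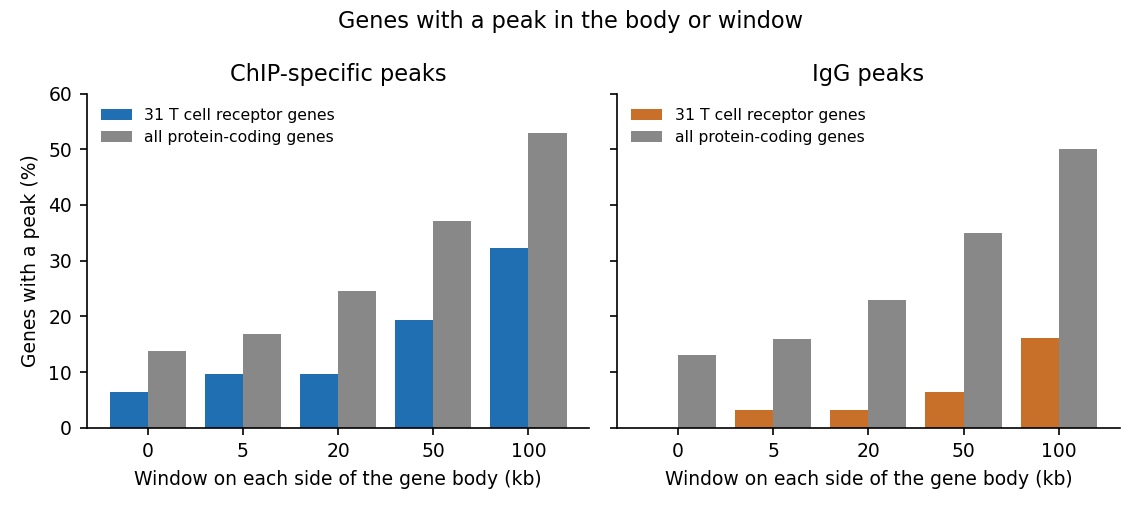
Share of genes (%) with a ChIP-specific (left) or IgG (right) peak in the gene body or a window of 0, 5, 20, 50 or 100 kb on each side, for the 31 genes (coloured bars) and all protein-coding genes (grey bars). The coloured bar is the lower one at every window in both panels, and no IgG peak lies inside a gene of the list.

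The 31 genes were longer by median than other genes. They had a median length of 39.0 kb (range 5.28 to 196 kb), against 17.2 kb over all protein-coding genes, and a median of 3 coding genes within 100 kb, against 4. Of the 6 genes of 100 kb or more (Cblb, Fyn, Prkcq, Nfkb1, Nfatc1 and Nfatc2), 1 had a ChIP-specific peak in its body or within 5 kb, against 55.2% of all genes of that size, and 0 had an IgG peak, against 53.0%. Of the 25 shorter genes 2 had a ChIP-specific peak, against 12.0%, and 1 an IgG peak, against 11.2%. The share in genes of 100 kb or more was added after the data were seen and rests on 6 genes. None of the 31 lies on X or Y, and over autosomal genes the shares with an assigned peak were 17.0% for ChIP-specific and 16.2% for IgG peaks.

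Counted as a density, each peak at its midpoint and neighbouring genes merged, the 31 bodies with 50 kb on each side covered 4.33 Mb in 26 windows. They held 6 ChIP-specific peaks, or 1.39 per Mb (exact Poisson 95% interval 0.509 to 3.02), against 4.96 per Mb around all protein-coding genes (4.86 to 5.07). IgG peaks numbered 2, or 0.462 per Mb (0.056 to 1.67), against 5.50 per Mb (5.39 to 5.62). The intervals cover the counting of peaks only, and peaks that cluster would widen them. The list was chosen with earlier results of these data known, so the intervals are a description and not a test. For both kinds the interval lay below the density around all genes. With peaks of FDR 0.01 or less this held for IgG, at 0.462 (0.056 to 1.67) against 3.07 per Mb. It did not hold for ChIP-specific peaks, of which 4 remained, or 0.925 per Mb (0.252 to 2.37) against 1.53. The mock pull-down, called over the same input, thus had few peaks around these genes too, and why both lists are sparse here was not tested.

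**Figure D4:**
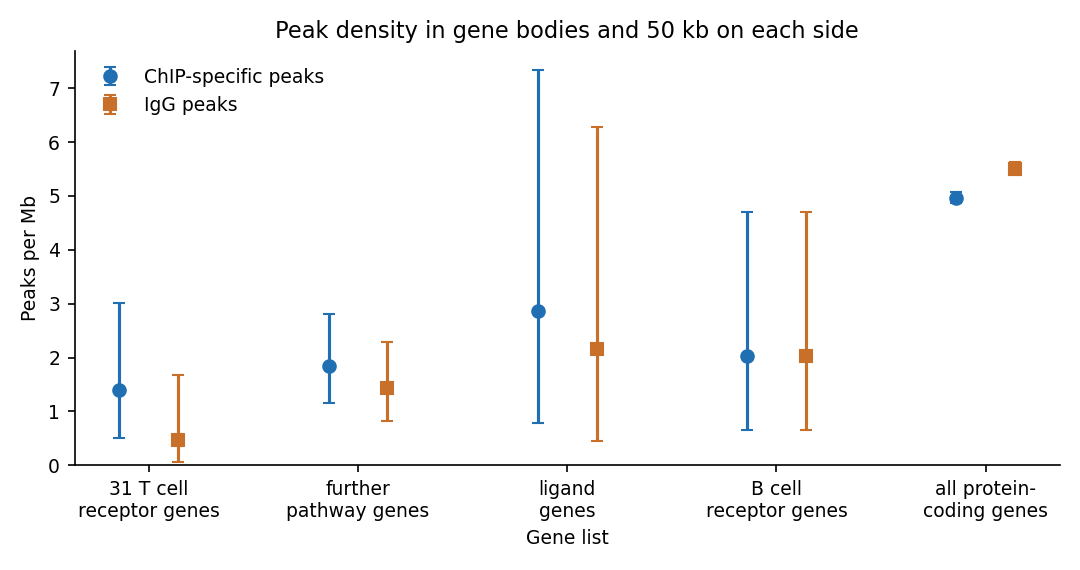
Peaks per Mb in gene bodies and 50 kb on each side, with exact Poisson 95% intervals, for the 31 genes, 3 other gene lists and all protein-coding genes (blue circles ChIP-specific, orange squares IgG). The 31 genes lie at 1.39 and 0.462 per Mb, and all protein-coding genes at 4.96 and 5.50.

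By annotation class, the 12 ChIP-specific peaks within 100 kb of the 31 genes comprised 10 in introns, 1 in an exon and 1 between genes. None was at a promoter or a transcription termination site. Over all annotated ChIP-specific peaks, 30.8% were intronic, 57.2% intergenic and 5.52% at promoters. Of the 12 peaks, 1 was assigned to a gene of the list, and the other 11 to neighbours. Sites near a gene are more often within genes by construction, so the classes of peaks there are a description and not comparable with those of the whole list.

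The rest of the pathway was followed in a further 73 genes. Of these, the authors assigned a ChIP-specific peak to 10 (13.7%) and IgG peaks to 10, beside 17.5% and 17.0% of all genes. In the body or within 5 kb, 8 (11.0%) had a ChIP-specific peak (16.8% of all genes) and 7 (9.59%) an IgG peak (15.9%). By role, the ChIP-specific count was 3 of 10 for calcium and calcineurin, 3 of 18 for NF-kB, MAP kinase and PI3-kinase genes, 1 of 8 for costimulatory receptors, 2 of 20 for inhibitory receptors and brakes, and 1 of 17 for proximal signalling. Promoter windows were at hand for 56 of the 73 genes. A ChIP-specific peak touched 1 of their 86 windows (1.16%), that of Tab2, beside 1.61% of all windows. The peak of Itpr1, which the authors' annotation places at a promoter, touched none of these windows. Itpr1, an IP3 receptor that releases calcium from the endoplasmic reticulum, had a promoter peak 56 bp upstream of its TSS (chr6:108212926-108213199, FDR 0.0157). Tab2, an adaptor of the kinase TAK1 upstream of NF-kB, had one 107 bp upstream (chr10:7955851-7956149, FDR 0.00849). Tnfrsf9, which encodes the costimulatory receptor 4-1BB, had an intronic peak of 350 bp 1410 bp downstream of its TSS (chr4:150921426-150921774), with an FDR printed as 0. Sos2, an exchange factor for Ras, had an intronic peak at 8519 bp (chr12:69608526-69608674, FDR 0.0168), and a second ChIP peak at 5594 bp that an IgG peak overlapped. The ChIP-specific peaks of Dok2, Map3k7, Btla and Stim2 nearest to the TSS were at 39099, 46760, 77750 and 92293 bp. Whether the 31 and the 73 genes differ was not tested. The density around the 73 genes was 1.85 ChIP-specific (1.16 to 2.80) and 1.43 IgG peaks per Mb (0.831 to 2.29), also below that around all genes, and its intervals overlap those of the 31.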

How the data were processed

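Chromatin from Th1 cells was fixed with 1% formaldehyde for 30 minutes, sonicated and pulled down, per the labels' protocols. The submitters' processing notes name BWA, HOMER and the build mm10. Which program called the peaks, and whether the 3 ChIP libraries were pooled first, is not given in the sources used here. Each peak has a deposited FDR, a q-value under 0.05 printed to 6 decimals, and a score in the HOMER tables that equals the peak length for all annotated peaks. Distances from an assigned peak to its TSS are the authors' deposited values, taken from the peak's centre. Other distances run from the nearest edge of the peak. Starts are those of the annotation tables, 1 bp above those of the peak lists. No list holds read counts.

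Members and lists were chosen with earlier results of these data known. All 131 listed genes were found by symbol in RefSeq. Peaks at any 1 bp overlap counted (Python 3.11.15, numpy 2.4.6, pandas 2.3.3, scipy 1.17.1, matplotlib 3.10.9). Position and distance counts were tested on simulated data. Start sites came from the RefSeq promoter table. Of the ChIP-specific and IgG peaks, 2 and 1 had no annotation and entered counts by position only. All 31 genes are named. Those with a peak assigned or within 5 kb are given with position, and the others by distance. Of the 73 further genes, those with an assigned ChIP-specific peak within 10 kb of the TSS and up to 5 others nearest to a peak were to be named, of which 1 is not reported here. Alternatives changed the FDR, the assignment, the windows and the overlap. The share in genes of 100 kb or more was added after seeing the data. Peak sequences were not used here.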

Additional observations from a re-analysis of the deposited data

How the results depend on the processing

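Many of these values are counts of 0 to 4, and of 46 alternatives 30 moved by over 1.5 times. ChIP-specific peaks with an FDR of at most 0.001 are too few near any gene for a count of 0 to show sparseness.

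At FDR 0.01, 0 genes were nearest to a ChIP-specific, 0 to any ChIP and 0 to an IgG peak (7.67%, 13.0% and 12.0% of all genes), and the counts were again 0, 0 and 0 at FDR 0.001 (0.329%, 3.59% and 7.05%). With assigned peaks within 10 kb only they were 0, 0 and 0 (9.86%, 13.7% and 10%), and for IgG within 100 kb 0 (16.5%). Own assignment to the nearest protein-coding TSS (either gene end where no start is on record) gave 4 genes for ChIP-specific peaks (Cblb, Icos, Malt1 and Pdcd1; 24.5% of all genes), 4 for all ChIP peaks (29.6%) and 2 (Cblb and Malt1) for IgG (24.0%).

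ChIP-specific peaks in the body or nearby were found in 6 genes with 50 kb (37.2%), in 1 at FDR 0.01 (7.54%), in 0 at 0.001 (0.366%) and in 1 of the 6 genes of 100 kb or more (55.2%). IgG peaks were found in 0 bodies (13.1%), in 2 genes with 50 kb (35.0%) and in 0 of the long genes (53.0%).

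The median distance to a ChIP-specific peak was 259 kb at FDR 0.01, below the 283 kb over all genes, and 6140 kb at 0.001 (5890 kb). For IgG it was 450 kb at 0.01 (185 kb) and 500 kb at 0.001 (343 kb). ChIP-specific density was 0.925 per Mb at 0.01 (Poisson interval 0.252 to 2.37), which covers the 1.53 around all genes, and 0 at 0.001 (0 to 0.853, all genes 0.0611). IgG density was 0 in bodies (5.94), 0.729 with 100 kb (5.68) and 0.231 at FDR 0.001 (0.00585 to 1.29, all genes 1.47). TAGGTCA was in 0 promoters (2.70%).

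Each list covers an antibody as a whole, so no library was left out. No paired analysis was possible because the lists carry no replicate. Read depth is unknown, so a gene without a peak is one where none was called.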

Other observations

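Ligands of these receptors and genes of the corresponding pathway in B cells were counted in the same way. Of 12 genes for ligands on antigen-presenting cells, 1 (8.33%) was nearest to a ChIP-specific peak, beside 17.5% of all genes. It was Pvr, whose product CD155 is bound by TIGIT, with a peak in an exon, 151 bp from the TSS (chr7:19920801-19921124, FDR 0.00503). An intronic ChIP peak of Pvr, 4264 bp from the TSS, lay over an IgG peak. Of 15 genes of B cell receptor signalling, Dapp1, an adaptor that binds phosphoinositides, had a ChIP-specific peak 4558 bp upstream (chr3:137960326-137960524, FDR 0.0396), and Syk, the kinase related to Zap70, had an IgG peak 16911 bp upstream. In the body or within 5 kb, 4 of the 15 (26.7%, Btk, Dapp1, Lyn and Plcg2) had a ChIP-specific peak and 1 (6.67%, Plcg2) an IgG peak, beside 16.8% and 15.9% of all protein-coding genes. By length, ChIP-specific peaks were found in 2 of the 4 B cell genes of 100 kb or more (Lyn and Plcg2), against 55.2% of all genes of that size. Among the 11 shorter ones the count was 2, against 12.0%. Density was 2.86 ChIP-specific (Poisson interval 0.78 to 7.33) and 2.15 IgG peaks per Mb (0.443 to 6.28) around the ligands. Around the B cell genes it was 2.02 of each kind (0.655 to 4.7). These values were below the 4.96 and 5.5 around all protein-coding genes, as for the 31 genes, though the intervals of the ligands cover them.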
